A study of Mus musculus with 16 samples.

Results

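Cluster 5 is the group of cells that the deposited cell table names as astrocytes under a label starting with 5, and it held 1758 of the 18203 cells of the series (9.66%). Its cells were taken by that label alone, and the label was made by the study from the expression of the same cells. Astrocytes are the glial cells that take up glutamate, buffer potassium and water, and supply the blood-brain barrier and synapses of the spinal cord. After injury they become reactive: they raise intermediate filaments such as Gfap and Vim, secrete acute-phase and complement proteins, and form the border around a lesion. Ryk is a transmembrane receptor that binds Wnt ligands and guides axons, and astrocytes are among the cells that carry it.

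Single spinal cord cells were sequenced by 3′ tag counting from 16 mice aged 8-10 weeks, of both sexes, 2 mice in each of 8 conditions. WT mice were Ryk+/+,GFAPcreERT2 and cKO mice were Rykfl/fl,GFAPcreERT2, so both genotypes carried the tamoxifen-inducible Cre under the GFAP promoter and differed in the floxed Ryk alleles. All mice had daily tamoxifen, and each genotype was sampled uninjured and at 1, 7 and 14 d after a lesion of the dorsal columns at the cervical level. The Cre driver is not specific to Cluster 5, since other GFAP-expressing cells carry it too. All cords were dissociated with pronase in the presence of the transcription inhibitor actinomycin D before dead cells were removed.

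Unless stated otherwise, values below are UMIs (counted transcript molecules) summed over the Cluster 5 cells of a mouse. They are given as counts or as TMM-normalised CPM, the usual scaled count level. Such CPM are relative to the UMIs of the tested genes and the TMM factor of the mouse from edgeR. That factor, a divisor of the CPM, ran from 0.574 (cKO uninjured replicate 2) to 2.05 (cKO 1 d replicate 1). Mice with at least 10 Cluster 5 cells were used, which left 14 of 16. The cKO uninjured replicate 1 library had 7 such cells with 10477 UMIs, and the library titled WT 1 d replicate 2 held 1 cell in all with 266 UMIs and none in Cluster 5. That left 3 uninjured mice (2 WT and 1 cKO), 3 mice at 1 d (1 WT and 2 cKO), 4 at 7 d and 4 at 14 d. Where values of single mice are listed, WT stand before cKO and replicate 1 before replicate 2 within a time.

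The libraries fell into groups that the conditions do not explain. Animal numbers in the sample titles form 2 series, under 10000 (5 of the tested mice: replicate 1 of WT uninjured and of both genotypes at 1 d and 7 d) and 10000 and above (9 mice). Ribosomal protein genes took 0.998 to 2.43% of Cluster 5 UMIs in the 5 mice with low numbers and 5.58 to 7.02% in the other 9, with no overlap. Malat1, a nuclear non-coding RNA, took 2.18 to 3.97% against 0.176 to 0.752%, and Gm42418, a gene model that overlaps ribosomal RNA, took 0.357 to 0.811% against 4.67 to 17.1%. Within the high series, Gm42418 was at 15.7 and 17.1% in the 2 uninjured mice and at 4.67 to 9.36% in the 7 injured mice.

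Total depth also differed between the series: 14013 to 64857 Cluster 5 UMIs per mouse in the low series and 104830 to 480970 in the high series. The median per cell did not split so: WT uninjured replicate 1, of the low series, stood at 1514 UMIs, within the high series. The Cluster 5 cells of a mouse gave between 14013 and 480970 UMIs in all (median 172786), from 35 to 260 cells. A median cell held 399 UMIs in WT and 329.5 in cKO replicate 1 at 1 d, and 414 in WT and 387 in cKO replicate 1 at 7 d. Those 4 shallow libraries lay below the other 10, whose medians ran from 1106 to 2276.5 UMIs per cell. Cluster 5 made up 2.94 to 6.34% of the cells of a mouse in the low series and 9.25 to 18.8% in the high series. In the high series the share was 18.3 and 18.8% in the 2 uninjured mice and 9.25 to 13.0% in the 7 injured mice, and the part of depth in this difference was not tested.

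**Figure D1:**
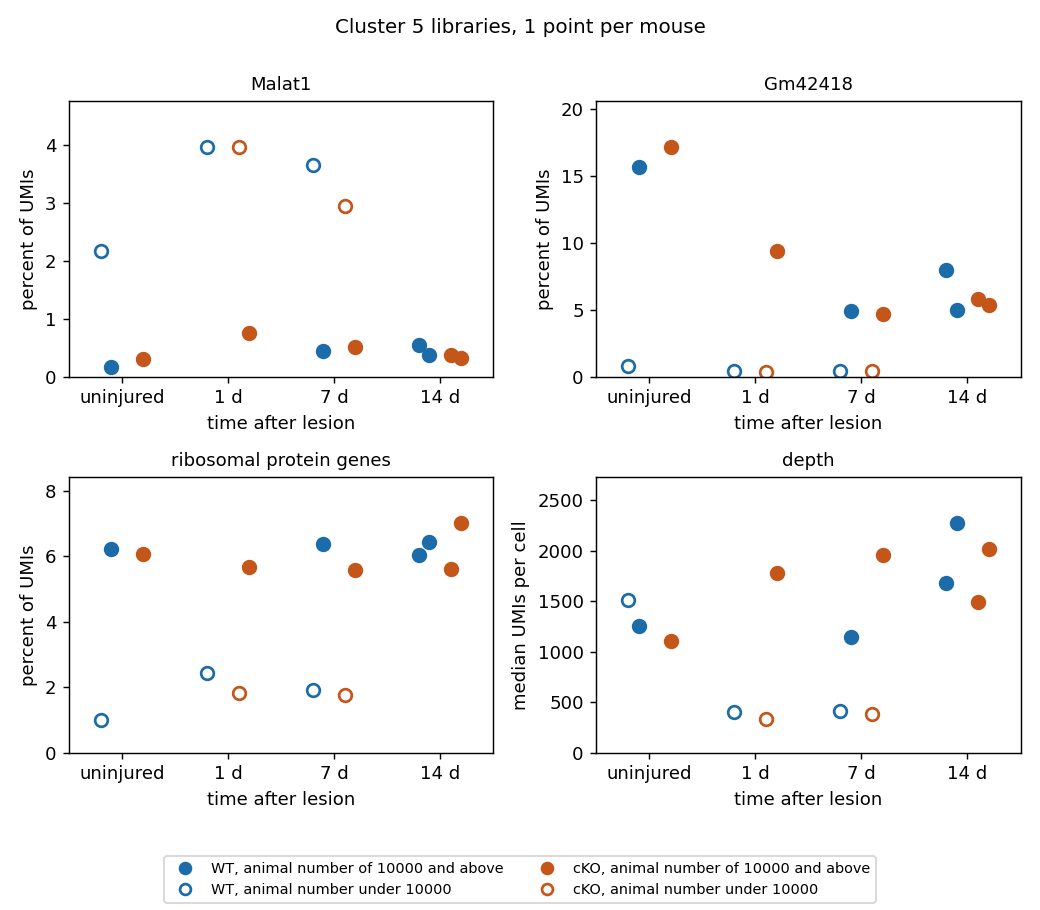
Percent of Cluster 5 UMIs from Malat1, from Gm42418 and from ribosomal protein genes, and median UMIs per Cluster 5 cell, on the y axes, for 1 point per mouse by time after lesion on the x axes, uninjured mice first (blue WT, orange cKO; open, animal number under 10000; filled, 10000 and above). Ribosomal protein genes lay at 0.998 to 2.43% in the open points and at 5.58 to 7.02% in the filled ones.

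The labels of some libraries are in doubt. In 6 of the 16 mice, all of replicate 2, the names of the deposited cells give another condition than the sample title: the library titled cKO uninjured replicate 2 is named as WT 7 d, WT uninjured replicate 2 as cKO uninjured, WT 1 d replicate 2 as WT 14 d, WT 7 d replicate 2 as WT 1 d, WT 14 d replicate 2 as cKO 14 d, and cKO 14 d replicate 2 as cKO 7 d. The condition column of the cell table equals the title in all 16 mice, and groups below follow the titles, which means that each result that rests on those libraries depends on the title being right. Across all libraries 166 barcodes occurred in more than 1 library, 21 Cluster 5 cells carried such a barcode, and 3 barcodes were shared by Cluster 5 cells of 2 libraries. UMIs of Xist, which is expressed from the inactive X chromosome of females, and of the Y-linked Ddx3y did not occur together in any tested mouse: 5 mice had Xist alone, 8 had Ddx3y alone and 1 had neither.

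Cluster 5 cells held 5 astrocyte markers more often than oligodendrocytes did. This is a description and no test of the label, which was made from the expression of the same cells. At a depth thinned to 300 UMIs per cell, 82.5% of 1694 Cluster 5 cells (exact 95% interval 80.6 to 84.3%) held a UMI of Slc1a2, the main glutamate transporter of astrocytes, against 201 of 1673 oligodendrocytes of Cluster 4 (95% interval 10.5 to 13.7%), which should lack it. Aldoc, a glycolytic enzyme of astrocytes, was found in 57.4% against 5.98%, and Ndrg2, a cytoplasmic astrocyte protein, in 40.0% against 5.02%. Aqp4, the water channel of astrocyte endfeet, was found in 30.5% against 1.73%, and Gfap, the intermediate filament, in 25.3% against 5.38%. Without thinning the shares in Cluster 5 were 95.8% for Slc1a2, 88.4% for Aldoc, 78.2% for Ndrg2, 70.9% for Aqp4 and 55.9% for Gfap, at median depths of 1377 UMIs per cell in Cluster 5 and 1106 in Cluster 4 over the cells of 300 UMIs or more. Intervals and floors here cover counting error only.

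All 8 of 8 astrocyte markers were detected, led by Slc1a2, and their summed level ran from 7335 (cKO 1 d replicate 1) over a median of 22314 to 25628 TMM-normalised CPM (WT 14 d replicate 1). The sum was 9826, 7335 and 17055 at 1 d against 16124, 24353 and 23140 uninjured, so the 2 shallow libraries at 1 d lay below all uninjured mice. Slc1a2 itself stood at 7159.6, 11549.7 and 11686 CPM in the uninjured mice, at 2685, 2326 and 7912 at 1 d, at 3201, 11074, 3856 and 11557 at 7 d and at 10506, 11100.1, 11559 and 10686 at 14 d. It was lowest in the 4 shallow libraries, at both times, and the other injured mice lay among the uninjured ones.

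Markers of other cells were present in Cluster 5, and the oligodendrocyte and neuronal markers separated the animal number series. The 6 of 6 oligodendrocyte markers, led by Mbp, summed to 1173 to 2792 CPM in the low series and to 11464 to 33654 in the high series. The 2 uninjured mice of the high series were highest (26377 and 33654), above their summed astrocyte markers (24353 and 23140). The 8 of 8 neuronal markers, led by the neurofilament gene Nefl, ran from 52.1 to 698 CPM against 2804 to 4025. Microglial markers (6 of 6) ran from 0 over a median of 476 to 851 CPM, and oligodendrocyte precursor markers (5 of 5, led by Olig1) from 286 over 481 to 646.

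The remaining marker lists were at low levels. Endothelial markers (6 of 6, led by Flt1) reached 333 CPM, pericyte markers (5 of 5, led by Pdgfrb) 106, ependymal markers (6 of 6, led by Rarres2) 133 and Schwann cell markers (4 of 4, led by Pmp22) 130.3. Fibroblast markers (4 of 5, led by Col1a2, with Lum at 0) reached 197 CPM, and monocyte, macrophage and neutrophil markers (5 of 8, led by Lyz2, with Ccr2, Ms4a7 and Plac8 at 0) reached 157. Red blood cell markers (4 of 4, led by Hbb-bs) reached 465 CPM. The part that RNA from these cells has in the results below was not tested.

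Ryk, the gene targeted in cKO mice, lies on chromosome 9 (mm10, 102834917 to 102908305, plus strand, ENSMUSG00000032547.12). Its UMIs in Cluster 5 were 9, 16 and 23 in the uninjured mice, 2, 0 and 27 at 1 d, 1, 9, 4 and 38 at 7 d and then 11, 34, 14 and 32 at 14 d. As TMM-normalised CPM, that was 137, 79.6 and 130.2 uninjured, 52.1, 0 and 73.0 at 1 d, 30.8, 103, 106 and 113 at 7 d and then 84.0, 88.3, 96.5 and 120.3 at 14 d. At no time were all cKO mice below all WT mice. Uninjured, the cKO mouse lay between the 2 WT mice, at 1 d the WT mouse lay between the 2 cKO mice, and both cKO values lay above both WT values at 7 d, as in 1022 of 7929 genes (12.9%), and at 14 d, as in 1196 (15.1%). The log2 fold change of cKO over WT was 0.33 ± 0.90 (SE) uninjured, 0.12 ± 1.32 at 1 d, 0.53 ± 0.87 at 7 d and then 0.33 ± 0.73 at 14 d, none called by edgeR. At 300 UMIs 1.83% of Cluster 5 cells held a Ryk UMI against 1.26% of oligodendrocytes, with overlapping 95% intervals, and 10.4% held one without thinning. The sources used here do not say which exons the floxed alleles delete, and a 3′ tag outside the deleted part checks nothing, so Ryk counts neither check the genotype labels nor measure recombination.

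Cluster 5 is 1 of 3 clusters that the cell table names as astrocytes, the others being Cluster 7 (1012 cells) and Cluster 2 (1213 cells). These contrasts are descriptions, since clustering used the values compared here. Their CPM, also those against Cluster 2, are relative to all UMIs of the cluster in a mouse, without TMM scaling. Cluster 5 carried more Aldoc than Cluster 7 in 14 of 14 mice (median 2789 against 1251 CPM), more Ndrg2 in 14 of 14 (1689 against 845) and more Gfap in 14 of 14 (1483 against 479). Transcripts that mark other cells were also higher in Cluster 5, Mbp at a median of 7311 against 1245 CPM (14 of 14 mice) and Snap25, a synaptic protein of neurons, at 379 against 36.3 (13 of 14). Fth1, the ferritin heavy chain, stood at 13649 against 3202 (14 of 14). Other transcripts were lower in Cluster 5. Malat1 was at a median of 5250.1 against 32448 CPM and Gpc5, a glypican, at 418 against 8034, each lower in 14 of 14 mice. Slc1a2 differed little (6859.8 against 5865 CPM, higher in 12 of 14), as did Aqp4 (1311 against 1255, higher in 9 of 14). Of other astrocyte genes, S100b (1417 against 388) and Sox9 (242 against 163) were higher in 13 and 12 of 14 mice. Slc1a3 (254 against 419), Aldh1l1 (170 against 264) and Slc7a10 (477 against 1130) were higher in 2, 1 and 1 of 14. Gja1 (973 against 1101) was higher in 6 of 14. Cdh2 (191 against 610), Nrcam (371 against 1070) and Ryk (74.9 against 138) were each higher in 2 of 14.

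Against Cluster 2, Cluster 5 had more Slc1a2, Ndrg2 and Aqp4 in 11 of 11 mice and less Fth1 in 11 of 11 (median 15306 against 23728 CPM). A median mouse had 1374.5 UMIs per cell in Cluster 5, 2785 in Cluster 7 and 898 in Cluster 2, and the part of depth in these differences was not tested. The injury response of Cluster 5 was also set against that of Cluster 7 in 1 edgeR fit over 14 mice, with the mouse as a block. None of 6719 genes was called (0%), with 240 genes at an unadjusted p under 0.05, against 3 uninjured mice. The difference in response was 1.46 log2 units for Lcn2, 1.72 for Hmox1, 1.44 for Vim and -0.54 for Gfap, each at an adjusted p of 1.

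Within a mouse, the ratio of variance to mean over Cluster 5 cells was highest for 3 transcripts of or over ribosomal RNA genes. The ratio of variance to mean over cells thinned to 300 UMIs had a median of 0.987 over 838 genes and 13 mice. It was highest for mt-Rnr2 (5.87), Gm42418 (4.20) and mt-Rnr1 (2.96), which are ribosomal RNAs of the mitochondrion or overlap ribosomal RNA. Fth1 (2.83), Malat1 (2.75), Apoe, a lipid carrier (2.50), Mbp, a myelin protein (2.19), Gfap (2.06), Clu, a secreted chaperone (1.92), and Mt1, a metal-binding metallothionein (1.90), followed. Each of the 10 lay above 1 in 13 of 13 mice. The ratio was not adjusted for the mean level of a gene, and the part of abundance in this ranking was not tested.

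At 1 d, the acute-phase gene Lcn2 and the stress gene Hmox1 rose in Cluster 5. Lcn2 encodes a secreted iron-siderophore carrier (lipocalin 2) and Hmox1 the enzyme that degrades heme. Their log2 fold changes over the uninjured mice were 7.96 ± 1.22 (SE) for Lcn2 and 7.41 ± 1.14 for Hmox1, each with an adjusted p of 0.00371 by edgeR. They were the 2 genes called of 7929 (0.0252%), 467 genes had an unadjusted p under 0.05, and calls by DESeq2 were 3, Lcn2, Hmox1 and the small heat shock gene Hspb1. With the replicate number as a block, which equals the batch column of the cell table, 9 genes were called, Lcn2, Hmox1, Tm4sf1, Hspb1, S1pr3, Timp1, Vgf, Tnfrsf12a and Serpina3n. Most reactive astrocyte genes were high at 1 d with them, and many genes of resting astrocytes were low in TMM-normalised CPM.

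Lcn2 (chromosome 2, 32384633 to 32388252, minus strand, ENSMUSG00000026822.14) stood at 0, 4.97 and 0 CPM in the uninjured mice, at 860.1, 71.6 and 341 at 1 d, at 0, 0, 0 and 11.9 at 7 d and at 7.64, 0, 34.5 and 3.76 at 14 d. The 3 mice at 1 d lay above the other 11, which held 0 to 5 Lcn2 UMIs each. Hmox1 (chromosome 8, 75093621 to 75100589, plus strand, ENSMUSG00000005413.8) stood at 0, 4.97 and 0 uninjured, at 495, 107 and 238 at 1 d, at 61.6, 0, 0 and 11.9 at 7 d and at 7.64, 0, 20.7 and 7.52 at 14 d. Again the mice at 1 d were highest, and cKO replicate 1 was the lowest of them with 2 UMIs of Lcn2 and 3 of Hmox1. Summed over mice, the ratio of 1 d to uninjured was 164 for Lcn2 (161 against 1 UMIs, exact 95% counting interval 29.0 to 6511) and 112 for Hmox1 (110 against 1 UMIs, 19.7 to 4461).

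**Figure D2:**
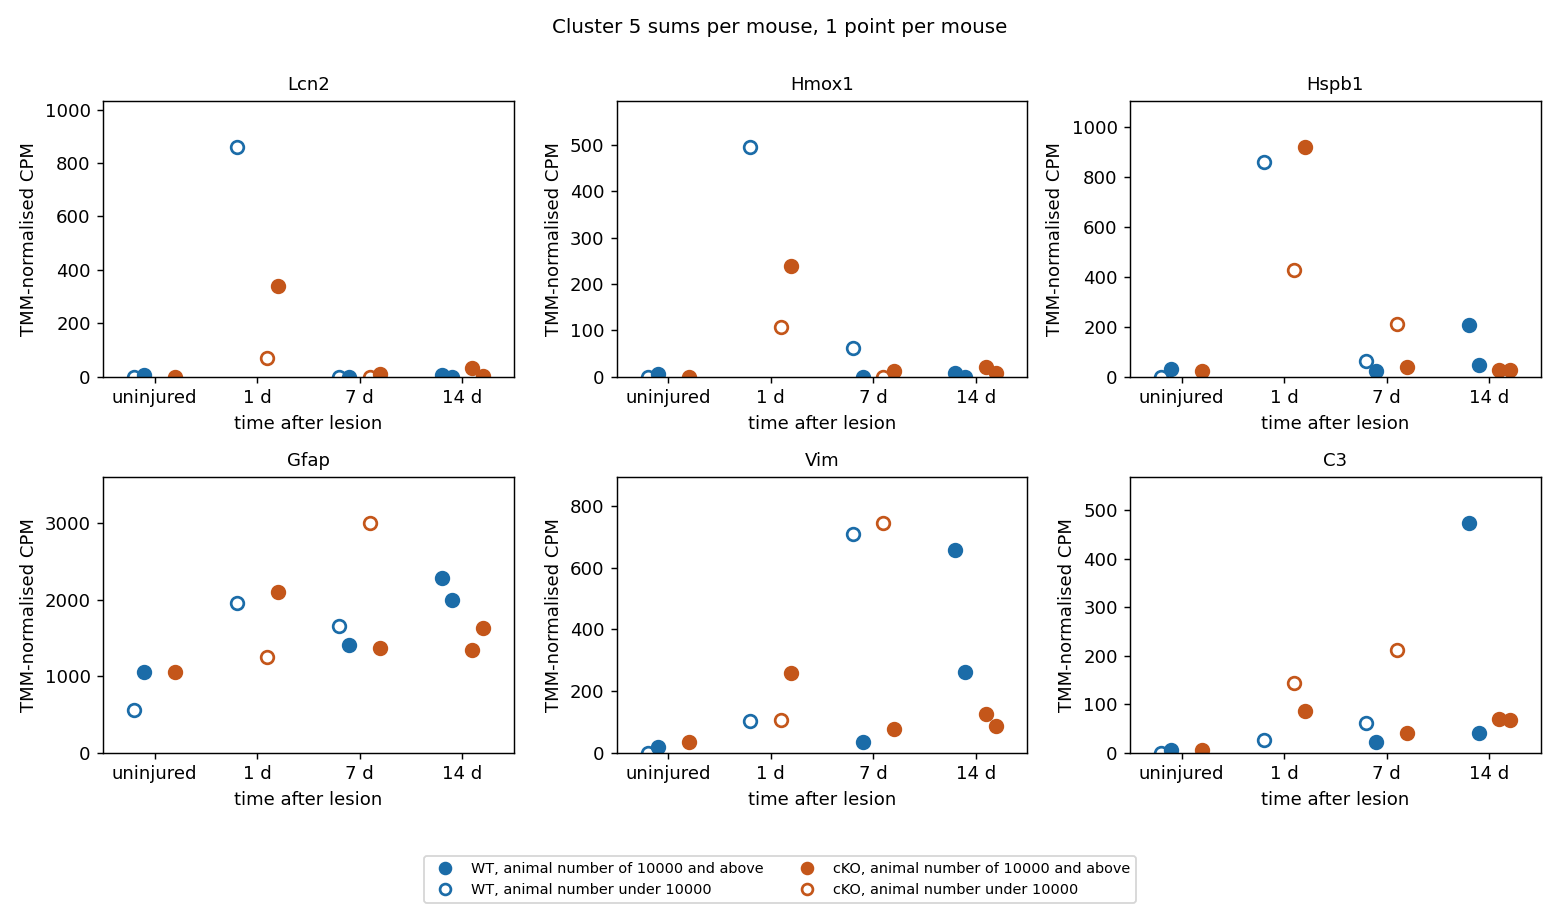
TMM-normalised CPM (y axes) of Lcn2, Hmox1, Hspb1, Gfap, Vim and C3 in Cluster 5, 1 point per mouse by time after lesion on the x axes, uninjured mice first (blue WT, orange cKO; open, animal number under 10000; filled, 10000 and above). Lcn2 lay between 71.6 and 860.1 in the 3 mice at 1 d and between 0 and 34.5 in the other 11.

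Shares of cells were uneven over the mice at 1 d. At 300 UMIs per cell, a Lcn2 UMI was found in 0 of 35, 260 and 227 cells of the 3 uninjured mice, and at 1 d in 19.6% of 51 cells of WT replicate 1, 0 of 19 cells of cKO replicate 1 (which allows up to 15.8% of cells with a UMI at this depth) and 4.64% of 237 cells of cKO replicate 2. In oligodendrocytes of the same mice the shares were 0 of 108, 0 of 105 and 2.13% of 188, and in cKO replicate 2 the exact 95% intervals of both cell types overlapped (2.34 to 8.15% and 0.583 to 5.36%). Hmox1 was in 9.80, 10.5 and 3.80% of those Cluster 5 cells, against 0 of 108, 0 of 105 and 0.532% of oligodendrocytes. Shares given below for a whole time pool the cells of its mice, so that 237 of the 307 cells at 1 d come from cKO replicate 2. Without thinning, 12.7% of Cluster 5 cells at 1 d held Lcn2 and 13.3% held Hmox1.

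The 2 calls depended on single libraries and on the titles. Lcn2 was called in 12 of 14 fits that left out 1 mouse (log2 fold change 6.64 to 9.22, adjusted p 0.000279 to 0.323), and Hmox1 in 12 of 14 (6.09 to 8.66, adjusted p 0.000279 to 0.314). Neither was called without cKO uninjured replicate 2 (adjusted p 0.102 for both) or without cKO 1 d replicate 2 (0.323 for Lcn2 and 0.314 for Hmox1). With the conditions of the cell names in place of the titles, Lcn2 was at 7.21 and Hmox1 at 6.58, and both had an adjusted p of 1.00. Within the mice of 10000 and above they were at 1.29 and 1.03 by the cell names, neither called by edgeR. By the titles, with 1 mouse at 1 d in that subset, they were at 7.64 and 7.12 with edgeR and at 7.24 and 6.72 with DESeq2. There edgeR called both genes and DESeq2 neither. The library titled WT 7 d replicate 2, which the cell names give as WT 1 d, held 0 UMIs of Lcn2 and of Hmox1 and 22.8 CPM of Hspb1.

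A fit with the animal number series added to the conditions was chosen after seeing the data, and it called more genes at 1 d. It called 25 of 7929 genes (0.315%), 20 that rose and 5 that fell. Of those, 20 were among the 193 genes called with only the 9 mice of 10000 and above, a fit that holds 1 mouse at 1 d. Those 9 mice are in both fits, and in the smaller one the spread between mice comes from the WT and cKO pairs at 14 d alone, so a shared call is no independent support. Leaving out the 4 shallow libraries, which also leaves 1 mouse at 1 d, gave 39 calls in the design with conditions alone. Genes named below only for their call in the fit with the series were chosen after their values were seen.

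The pan-reactive genes, a list of 16 that mark reactive astrocytes of any kind, stood high at 1 d. All 16 were tested and 15 lay above 0, with a median log2 fold change of 3.51 (2.87 with genes at 0 in a group set to their bound) against -0.43 over all genes. In 11 of the 16 every mouse at 1 d lay above every uninjured mouse, against 281 of 7929 genes (3.54%). Those were Gfap, Vim, Serpina3n, Lcn2, S1pr3, Timp1, Hspb1, Cd44, Stat3, Socs3 and Nes. Lcn2 was called with conditions alone, and with the series in the design Lcn2, Hspb1, Serpina3n, Timp1 and S1pr3 were called.

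Hspb1, a small heat shock protein that binds intermediate filaments, stood at 0, 29.8 and 22.6 CPM uninjured, at 860.1, 429 and 919.7 at 1 d, at 61.6, 22.8, 213 and 38.7 at 7 d and at 206, 46.8, 27.6 and 26.3 at 14 d. Each mouse at 1 d lay above the other 11, with a log2 fold change of 5.15 ± 1.07 and an adjusted p of 0.0948 by edgeR with conditions alone, which misses the threshold. With the series it rose by 5.11 ± 0.55 (adjusted p 9.24e-17), and it was called in 14 of 14 such fits that left out 1 mouse. By the conditions of the cell names Hspb1 was at 6.81 over all mice and at 2.25 within the mice of 10000 and above, called in neither. The ratio of summed UMIs was 39.2 (385 against 10 UMIs, counting interval 21.1 to 82.4). At 300 UMIs it was in 0.383% of uninjured cells and 11.1% of cells at 1 d, against 2.74% of oligodendrocytes.

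Other secreted and surface proteins of reactive astrocytes followed. Timp1, an inhibitor of matrix metalloproteinases, stood at 15.2, 0 and 0 CPM uninjured and at 130.3, 179 and 138 at 1 d, with a log2 fold change of 6.21 ± 1.24 and an adjusted p of 0.0948. S1pr3, a sphingosine-1-phosphate receptor, had 0 UMIs in the uninjured mice and 130.3, 35.8 and 70.3 CPM at 1 d. Against a floor of 3 UMIs over the uninjured group, the bound on the ratio of summed UMIs was 10.85 (lower counting limit 8.328). Serpina3n, a secreted protease inhibitor, stood at 30.3, 4.97 and 22.6 CPM and then at 235, 71.6 and 359.8, and with the series in the design it rose by 3.70 ± 0.66 (adjusted p 2.30e-05). For these 3 genes the lowest mouse at 1 d lay above the highest uninjured mouse. In single cells at 1 d Serpina3n was in 4.89% of Cluster 5 cells and in 10.2% of oligodendrocytes, and whether free RNA has a part in either share was not tested.

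Cd44, a hyaluronan receptor, stood at 15.2, 59.7 and 102 CPM uninjured and at 261, 215 and 281 at 1 d. Stat3, the transcription factor that drives astrocyte reactivity, stood at 91.0, 64.7 and 62.2 and 261, 143 and 97.4, and Socs3, its feedback inhibitor, at 0, 0 and 0 and 104, 35.8 and 18.9. Nes, an intermediate filament of progenitors, stood at 0, 4.97 and 22.6 and 78.2, 71.6 and 92.0. None of the 4 was called, and in each the groups did not overlap.

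Gfap stood above the uninjured level at each time and was not called. Gfap (chromosome 11, 102887336 to 102900912, minus strand) stood at 561, 1059 and 1053 CPM uninjured, 1955, 1252 and 2099 at 1 d, 1662, 1414, 3005 and 1372 at 7 d and then 2285, 2001, 1337 and 1628 at 14 d. All 11 injured mice lay above all 3 uninjured mice, yet the log2 fold changes of 0.97 ± 0.88 at 1 d, 0.98 ± 0.82 at 7 d and then 0.95 ± 0.82 at 14 d were not called. At 300 UMIs, Gfap was found in 15.3% of uninjured cells, 39.1% at 1 d, 26.9% at 7 d and 26.0% at 14 d, against 3.04, 7.73, 2.87 and 7.07% of oligodendrocytes. Without thinning those shares in Cluster 5 were 40.8, 71.6, 54.9 and 61.4%.

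The lists named A1 and A2 in the literature of neuroinflammation and ischemia both leaned upward at 1 d. Of 14 A1 genes 8 were tested and 6 lay above 0 (median 2.22, or 1.54 with bounds), with C3, C4b, Iigp1 and Fkbp5 higher in every mouse at 1 d, against 3.54% of all genes. Fkbp5, a glucocorticoid-induced chaperone, stood at 45.5, 0 and 5.66 CPM uninjured and at 78.2, 179 and 54.1 at 1 d. Of 12 A2 genes 5 were tested and 4 lay above 0 (median 2.90), with Tgm1 and Emp1 higher in every mouse, against the same share. Tgm1, a transglutaminase, had 0 UMIs uninjured and 52.1, 179 and 94.7 CPM at 1 d. Tm4sf1, a tetraspan membrane protein of the A2 list, stood at 0, 9.95 and 5.66 CPM uninjured and at 365, 0 and 211 at 1 d, so that cKO replicate 1 overlapped the uninjured mice, and it rose by 5.15 ± 0.78 with the series in the design (adjusted p 8.99e-08).

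Most genes of resting astrocytes lay below 0 at 1 d. Of 32 homeostatic astrocyte genes, all tested, 26 lay below 0 at 1 d, with a median of -0.75 against -0.43 over all genes (-0.67 against -0.19 with the series in the design). In 12 of the 32 every mouse at 1 d lay below every uninjured mouse, against 491 of 7929 genes (6.19%), and none was called. Aqp4 stood at 2290.5, 1796 and 1647 CPM uninjured and at 1589.9, 1396 and 1190.2 at 1 d. Gja1, the main gap junction protein of astrocytes, stood at 1547, 1114 and 996 and 756, 608 and 646, and Cldn10, a claudin, at 1077, 293 and 345 and 235, 71.6 and 162. Cst3, a secreted cysteine protease inhibitor, stood at 7645, 5705 and 5942 and 2893, 2469 and 3814. For Cst3 the 2 shallow libraries were the lower mice at 1 d. The summed astrocyte markers were lowest in the same 2 libraries, whose part in the list was not tested.

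Stress and metabolic lists at 1 d had other medians with the animal number series in the design. So had all genes, at -0.43, or -0.19 with the series, with 5006 of 7929 below 0. Of 18 metallothionein and oxidative stress genes 17 were tested, 11 lay below 0 and the median was -0.62, or 0.00 with the series in the design. Hmox1 was called in both fits and Txn1, the redox protein thioredoxin, with the series. Txn1 stood at 0, 139 and 67.9 CPM uninjured and 261, 0 and 151 at 1 d, so the groups overlapped, and it rose by 4.63 ± 0.95 (adjusted p 0.00115), a call lost without WT 1 d replicate 1, without cKO 1 d replicate 2 and within the mice of 10000 and above (0.64, adjusted p 0.623). Mt1 stood at 2761, 6282 and 5682 CPM uninjured and 6177, 3507 and 8843 at 1 d, so the groups overlapped. Of 11 heat shock genes 8 were tested, with a median of -0.62, or 0.28 with the series. Of 18 nuclear genes of oxidative phosphorylation, all tested, 18 lay below 0 (median -1.31, or -0.38 with the series), and of 15 tested glycolysis genes (16 listed) 14 lay below 0 (median -1.28, or -0.47). Of 16 cholesterol synthesis genes the median was -0.38, or 0.20 with the series.

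Immediate early genes, whose transcription actinomycin D blocks during dissociation, had 8 of 16 members tested, 6 above 0 and a median of 0.91, or 1.52 with the series. Fos, Junb and Klf6, transcription factors of early responses, were higher in every mouse at 1 d, against 3.54% of all genes. Junb stood at 0, 0 and 17.0 CPM uninjured and 130.3, 35.8 and 43.3 at 1 d, and Klf6 at 0, 19.9 and 17.0 and 52.1, 107 and 78.4. Astrocyte transcription factors (16 of 19 tested) had a median of 0.05 with 9 above 0, or -0.26 with 6 above 0 with the series in the design, with Stat3, Cebpd and Cebpb higher and Sox2 lower in every mouse, against 3.54% and 6.19% of all genes. Cebpd, an acute-phase transcription factor, stood at 0, 9.95 and 0 and 78.2, 71.6 and 135 and was called with the series in the design (5.40 ± 1.35, adjusted p 0.0233), a call kept in 8 of 14 fits that left out 1 mouse.

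Signalling and matrix lists showed no call at 1 d. Of 19 Wnt receptors and inhibitors 12 were tested (median -0.55, or -0.20 with the series, against -0.19 over all genes), with Ryk, Vangl2, a planar polarity protein, and the ligand Wnt7a lower in every mouse at 1 d, against 6.19% of all genes. At that time the 2 shallow libraries held 2 and 0 Ryk UMIs. Canonical Wnt target genes (5 of 14 tested) had a median of 0.11 and glucocorticoid response genes (9 of 11 tested) of 0.03, or 0.34 for each with the series. Chondroitin sulfate proteoglycan and matrix genes (13 of 18 tested) had a median of -0.19 (-0.27 with the series), with Bcan, the proteoglycan brevican, and Sparcl1, a secreted synapse-promoting protein, lower in every mouse. Of 12 tested adhesion genes (14 listed) 11 lay above 0 with a median of 0.62, or 0.22 with the series. Genes of prosaposin and its receptors, Fgf and Vegf (13 of 15 tested) had a median of -0.71 (-0.44 with the series), and Psap, the secreted lipid-binding prosaposin, stood at 1047, 1139 and 911 CPM uninjured and 547, 537 and 871 at 1 d. Interferon response genes (6 of 15 tested) had a median of 0.97 (1.10 with the series), and of 15 cell cycle genes 1 was tested.

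With the series in the design, other genes rose at 1 d in Cluster 5. Nav2, a neuron navigator protein, stood at 349, 39.8 and 39.6 CPM uninjured and 1277, 537 and 465 at 1 d and rose by 2.75 ± 0.45 (adjusted p 1.90e-06). Vgf, a secreted neuropeptide precursor, stood at 0, 14.9 and 5.66 and 104, 35.8 and 268 and rose by 5.31 ± 1.01 (adjusted p 0.000152). Tnfrsf12a, the receptor of the cytokine TWEAK, stood at 15.2, 4.97 and 17.0 and 261, 107 and 129.8 and rose by 3.72 ± 0.79 (adjusted p 0.00202). In these 3 genes all mice at 1 d lay above all uninjured mice. Of the genes that fell, Btbd17 was at -2.01 (adjusted p 0.0233) and Lgi1, a secreted synaptic ligand, at -1.82 (adjusted p 0.0351). Hmox1, Tm4sf1, Nav2, Serpina3n, Vgf, Tnfrsf12a, Timp1 and S1pr3 were each called in 13 of 14 fits that left out 1 mouse, and not without cKO 1 d replicate 2. Btbd17 was called in 10 of the 14 and Lgi1 in 8, and Lgi1 was not called within the mice of 10000 and above (-1.07, adjusted p 0.222).

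At 7 d, Lcn2 lay between 0 and 11.9 CPM and Hmox1 between 0 and 61.6, Gfap and Vim stood above the uninjured mice and no gene was called. edgeR called 0 of 7929 genes (0%), 179 had an unadjusted p under 0.05, and 0 were called by DESeq2. Vim (chromosome 2, 13573927 to 13582826, plus strand), the intermediate filament of immature and reactive astrocytes, stood at 0, 19.9 and 34.0 CPM uninjured, 104, 107 and 259.7 at 1 d, 708, 34.2, 745 and 77.4 at 7 d and then 657, 262, 124 and 86.5 at 14 d. At 7 d the 2 shallow libraries were at 708 and 745 and the other 2 at 34.2 and 77.4, so that WT replicate 2 was next to the highest uninjured mouse. The log2 fold change of Vim at 7 d was 4.05 ± 1.14, not called (adjusted p 1.00).

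The fit with the series called 25 genes at 7 d (0.315%), 7 that rose and 18 that fell. The rise of smallest p was that of the uncertain model Gm26870 (3.77, adjusted p 2.95e-08), with Gm37459, Gm10800 and mt-Nd3 also among the 7. Cdk8, Gphn, Gm42418 and Lars2 were among the falls, and in each of the 4 the 2 uninjured mice of the high series stood above all other mice while the third uninjured mouse, of the low series, lay below the high-series mice at 7 d. Vim rose by 2.76 ± 0.55 (adjusted p 0.000600), and the call was lost without WT 7 d replicate 1 or without WT uninjured replicate 1. Within the mice of 10000 and above Vim was 0.96 higher on the log2 scale at 7 d, with an adjusted p of 0.791, and A2m (1.75, adjusted p 0.231) and Aebp1 (4.18, adjusted p 0.183) were not called there either. A2m, the protease inhibitor alpha-2-macroglobulin, stood at 152, 44.8 and 11.3 CPM uninjured and at 677, 114, 798 and 53.6 at 7 d and rose by 2.47 ± 0.55 (adjusted p 0.00453). Aebp1, an extracellular matrix protein, stood at 0, 4.97 and 0 and then 339, 45.6, 53.2 and 20.8 and rose by 4.74 ± 1.16 (adjusted p 0.0163). The highest values of A2m and Aebp1 at 7 d came from the low series, the high-series mice at 7 d lay below the uninjured WT replicate 1 for A2m, and A2m was called in 12 and Aebp1 in 10 of 14 fits that left out 1 mouse.

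At 7 d the pan-reactive median was 1.07 (0.91 with bounds) with 16 of 16 above 0, and Gfap and Vim were higher in every mouse, against 85 of 7929 genes (1.07%). A1 genes had a median of 0.91 (0.10 with bounds), with C3 and Serping1, an inhibitor of the first complement component, higher in every mouse, and A2 genes of 1.18. Homeostatic genes had a median of -0.27 with 21 of 32 below 0, and none was lower in every mouse, against 189 of 7929 genes (2.38%). All 18 oxidative phosphorylation genes lay below 0 (median -0.86, or -0.55 with the series), as did 14 of 16 cholesterol synthesis genes (median -0.45, or -0.25 with the series). The median over all genes was -0.14.

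By 14 d, C3 and Vim were above the uninjured level in all 4 mice, with WT replicate 1 far above the rest. C3 (chromosome 17, 57203970 to 57228136, minus strand), the central complement component and a mark of A1 astrocytes, stood at 0, 4.97 and 5.66 CPM uninjured, 26.1, 143 and 86.6 at 1 d, 61.6, 22.8, 213 and 41.7 at 7 d and then 474, 41.6, 68.9 and 67.7 at 14 d. The log2 fold change at 14 d was 4.62 ± 1.10 for C3 (adjusted p 0.822) and 3.31 ± 1.10 for Vim (adjusted p 1.00), and edgeR called 0 of 7929 genes (0%), with 167 at an unadjusted p under 0.05. With the replicate block 5 were called, C3 (3.90 ± 0.91, adjusted p 0.0340), the gene models Gm26870, Gm10800 and Gm37459, and the hemoglobin gene Hbb-bs, which was lower. DESeq2 called 1, Gm26870, a non-coding gene model that is uncertain because near-identical copies could share its reads. At 300 UMIs, C3 was in 0.192% of uninjured cells, 1.30% at 1 d, 2.92% at 7 d and 2.29% at 14 d, against 0, 0.442 and 0% of oligodendrocytes at those 3 times.

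With the series in the design 47 of 7929 genes were called at 14 d (0.593%), 16 that rose and 31 that fell, and 46 of them were among the 109 genes called within the mice of 10000 and above, which include all 4 mice at 14 d. DESeq2 called 14 in that subset. The rise of smallest p was that of the uncertain model Gm26870 (5.04, adjusted p 9.73e-18), and Gm10800, Gm37459, Gm26917, Ddx3y and Lrrtm4 were also among the 16. C3 rose by 4.79 ± 0.71 (adjusted p 2.24e-08) and Vim by 3.57 ± 0.51 (adjusted p 3.43e-09), both called in 14 of 14 fits that left out 1 mouse. A2m stood at 642, 109, 117 and 132 CPM at 14 d and rose by 3.27 ± 0.51 (adjusted p 1.65e-07), also in 14 of 14, though the uninjured WT replicate 1 (152 CPM) lay above 3 of these 4 mice. C4b, a complement component, stood at 75.8, 29.8 and 0 uninjured and 214, 46.8, 75.8 and 45.1 at 14 d and rose by 4.07 ± 0.91 (adjusted p 0.00230), though the uninjured WT replicate 1 lay within the 14 d mice. Serpina3n stood at 176, 65.0, 89.6 and 71.4 at 14 d, with every mouse above every uninjured one, and rose by 2.54 ± 0.58 (adjusted p 0.00297). S1pr3 stood at 45.8, 41.6, 6.89 and 22.6 and rose by 5.35 ± 1.45 (adjusted p 0.0402), a call kept in 5 of 14 fits and lost within the mice of 10000 and above (adjusted p 0.0591). The calls of C4b and Serpina3n were each kept in 12 of 14 and lost without WT 14 d replicate 1.

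Meg3, a maternally expressed non-coding RNA, stood at 45.5, 54.7 and 45.3 CPM uninjured and 206, 325, 207 and 353 at 14 d, with no overlap, and rose by 2.31 ± 0.45 (adjusted p 9.44e-05). S100a6, a calcium-binding protein, stood at 15.2, 54.7 and 108 and 963, 158, 55.1 and 120.3 and rose by 1.89 ± 0.42 (adjusted p 0.00202), with cKO replicate 1 among the uninjured values. C1qa, the complement initiator made by microglia, stood at 0, 9.95 and 5.66 uninjured and 68.8, 93.5, 62.0 and 56.4 at 14 d and rose by 3.17 ± 0.75 (adjusted p 0.00584). C1qa is also 1 of the 6 microglial markers, whose sum was 106, 851 and 515 CPM in the uninjured mice and 458, 525, 510.1 and 493 at 14 d, and its origin was not tested. Its call was kept in 9 of 14 fits that left out 1 mouse, that of S100a6 in 12 and that of Meg3 in 13.

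The falls at 14 d were led by genes that took a large share of UMIs in the 2 uninjured mice of the high series. Cdk8, a kinase of the mediator complex, stood at 439.9, 54824 and 57790.0 CPM uninjured and 8015, 4685, 5789.9 and 5049.7 at 14 d, and fell by 3.09 on the log2 scale (adjusted p 1.14e-12). Gphn, the synaptic scaffold gephyrin, stood at 879.8, 37479 and 27973 and 5945, 4549.7, 5989.8 and 5459.5 and fell by 2.32 (adjusted p 1.04e-07). Gm42418 fell by 1.94 (adjusted p 0.00143). The uninjured mouse of the low series lay below all 14 d mice for Cdk8 and Gphn, so these falls rest on the other 2 uninjured mice, both of them libraries whose cell names give another condition. Xist and Ddx3y were also called at 14 d (-3.44 ± 0.79 and 4.20 ± 0.99), and 2 of the 3 uninjured mice and 1 of the 4 mice at 14 d had Xist UMIs.

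Of the lists at 14 d, pan-reactive genes had a median of 1.87 (1.18 with bounds) with 14 of 16 above 0, against 0.04 over all genes. In 6 of the 16, Gfap, Vim, Serpina3n, S1pr3, Osmr and Socs3, every mouse lay above the uninjured mice, against 399 of 7929 genes (5.03%). All 8 tested A1 genes lay above 0 (median 2.17, or 1.60 with bounds), 3 of them, C3, Serping1 and the guanylate-binding protein Gbp2, in every mouse. A2 genes had a median of 0.68 (0.10 with bounds). Homeostatic genes had a median of -0.09 with 12 of 32 above 0, or -0.22 with 7 above 0 with the series in the design (0.01 over all genes), and Cldn10, at 206, 158, 193 and 214 CPM, was 1 of 32 lower in every mouse, against 186 of 7929 genes (2.35%).

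Of the metabolic lists at 14 d, cholesterol synthesis genes had 14 of 16 below 0 (median -0.55, or -0.64 with the series), with Cyp51, lanosterol demethylase, at 152, 239 and 243 CPM uninjured and 122, 125, 145 and 105 at 14 d. Sc5d, another enzyme of the pathway, stood at 212, 139 and 153 and 99.3, 133, 110.3 and 90.2, also with no overlap, against 2.35% of all genes lower in every mouse. Oxidative phosphorylation genes had a median of -0.09 and glycolysis genes of 0.20, or -0.45 and -0.06 with the series. Whether the course of any list differs between times was not tested, and the 3 times share their uninjured mice.

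**Figure D3:**
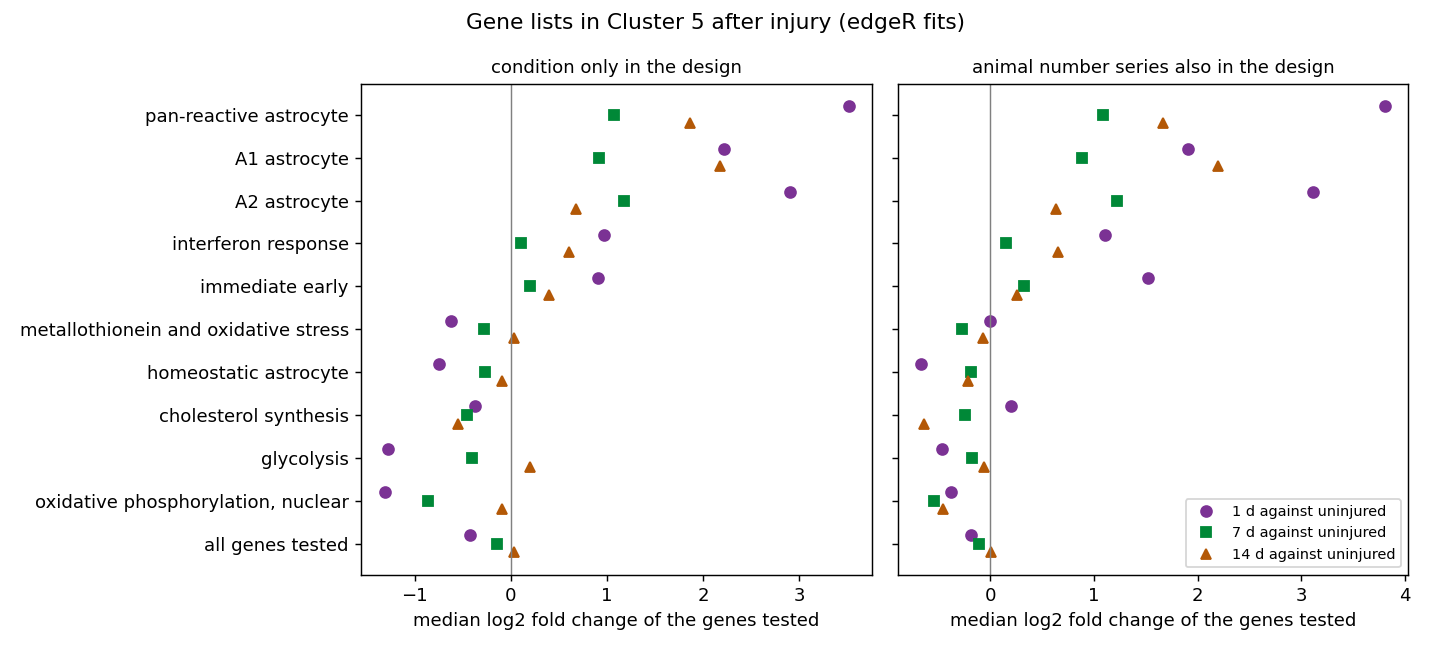
Median log2 fold change against the uninjured mice (x axis) of 10 gene lists and of all genes (y axis) at 1 d (purple circles), 7 d (green squares) and 14 d (orange triangles), from the fit with conditions alone (left) and with the animal number series in the design (right). The pan-reactive list lay at 3.51, 1.07 and 1.87 in the left panel, against -0.43, -0.14 and 0.04 over all genes.

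Over all 11 injured against the 3 uninjured mice, pan-reactive genes had the highest list median, and edgeR and DESeq2 called no gene. With bounds, the pan-reactive median (1.40) was next to that of A2 genes (1.39). edgeR called 0 of 7929 genes (0%), 235 had an unadjusted p under 0.05, and 0 were called by DESeq2. Pan-reactive genes had 16 of 16 above 0 with a median of 2.62 (1.40 with bounds) against -0.25 over all genes, and homeostatic genes had 27 of 32 below 0 with a median of -0.47. The 3 genes of smallest p, none called, were the 5.8S ribosomal RNA model n-R5-8s1, Ndufb4, a subunit of respiratory complex I, and Pdlim2, a cytoskeletal adaptor. Pdlim2 stood at 30.3, 632 and 741 CPM in the uninjured mice, and 2 of these were above all injured mice, which ran up to 259.8 CPM.

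With the series in the design 34 genes were called over all injured mice (0.429%), 9 that rose and 25 that fell. Vim rose by 2.75 ± 0.50 (adjusted p 5.54e-05), Serpina3n by 2.85 ± 0.54 (adjusted p 0.000102) and Hspb1 by 2.50 ± 0.52 (adjusted p 0.000731). Hspb1 was not called within the mice of 10000 and above (1.49, adjusted p 0.167), where the 7 d and 14 d mice other than WT 14 d replicate 1 stood at 22.8 to 46.8 CPM. A2m rose by 2.44 ± 0.51 (adjusted p 0.000689) and C3 by 3.46 ± 0.89 (adjusted p 0.0284). Of the homeostatic genes Cldn10 fell by 1.14 (adjusted p 0.0239), which was not called within the mice of 10000 and above (adjusted p 0.265). Cdk8, Gphn and Gm42418 were again among the falls. Of 14 fits that left out 1 mouse, Vim, Cdk8, Gphn and Gm42418 were called in 14, Hspb1 and A2m in 13, Serpina3n in 12, and C3 and Cldn10 in 10. C3 was not called without WT 14 d replicate 1, cKO 14 d replicate 2, cKO 1 d replicate 2 or WT uninjured replicate 1.

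By edgeR with conditions alone and the filter on low counts, the knockout comparisons found no called gene in Cluster 5. At 14 d, with 2 WT and 2 cKO mice, edgeR called 0 of 7929 genes (0%), 63 had an unadjusted p under 0.05, and DESeq2 called 0. With the replicate block 1 was called, Gm12892 (7.45 ± 1.30, adjusted p 8.21e-05). Reactive genes leaned lower in cKO at this time: 13 of 16 pan-reactive genes lay below 0 (median -0.86, or -0.61 with bounds, against -0.04 over all genes), 7 of 8 A1 genes (median -0.98) and 5 of 5 A2 genes (median -1.02). Vim stood at 657 and 262 CPM in WT and at 124 and 86.5 in cKO, C3 at 474 and 41.6 against 68.9 and 67.7, and Gfap at 2285 and 2001 against 1337 and 1628. Vim and Gfap were lower in both cKO mice, as were 1366 of 7929 genes (17.2%), C3 overlapped, and WT replicate 1 was the highest mouse for all 3. By the cell names WT replicate 2 is a cKO mouse and cKO replicate 2 is of another time, so this comparison depends on the titles.

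With the series in the design 8 genes were called between genotypes at 14 d (0.101%), 3 higher and 5 lower in cKO, and all 8 were among the 10 called by edgeR within the mice of 10000 and above, which include the same 4 mice, while DESeq2 called 0 in that subset. Vim fell by 2.10 (adjusted p 0.00427), S100a6 fell by 2.52 (adjusted p 9.70e-05) and Fxyd1, a sodium pump regulator, fell by 2.21 (adjusted p 0.000959). Lgals3, a galectin of phagocytes and reactive glia, fell by 3.98 (adjusted p 0.0239) and stood at 183, 23.4, 0 and 7.52 CPM. S100a6 was at 963, 158, 55.1 and 120.3 CPM and Fxyd1 at 1192, 242, 165 and 135, so that WT replicate 1 stood above the other 3 mice for these genes. Without WT 14 d replicate 1 the count was 3, without WT 14 d replicate 2 it was 20, without cKO 14 d replicate 1 it was 1 and without cKO 14 d replicate 2 it was 4, and Vim, Fxyd1 and Lgals3 were not called without WT replicate 1 or without either cKO mouse, nor S100a6 without WT replicate 1 or cKO replicate 1.

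Gm12892, a processed pseudogene on chromosome 4 (122008193 to 122009338), was the strongest of the higher genes. It had 0, 0, 14 and 34 UMIs at 14 d, none in WT, and its log2 fold change was 7.23 ± 1.31 with conditions alone (adjusted p 0.103) and 7.24 ± 1.17 with the series (adjusted p 5.31e-06; called in 14 of 14 fits without 1 mouse). At other times it stood at 0, 4.97 and 11.3 CPM uninjured, 0, 0 and 81.1 at 1 d and 0, 0, 0 and 8.93 at 7 d, so cKO 1 d replicate 2 was high as well. Its reads could belong to its parent gene, and Gm26870 and Gm10800, the other 2 higher genes, are models of repeated sequence, so all 3 are uncertain. Xist was the remaining call (lower in cKO). WT replicate 2 had 38 Xist and 0 Ddx3y UMIs, while WT replicate 1 and both cKO mice had 0 of Xist and 14, 18 and 34 of Ddx3y. The Xist UMIs at 14 d thus came from 1 WT mouse. The Xist call was lost without that mouse, and also without either cKO mouse.

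The other times had 1 or 2 mice per genotype. Uninjured, with 1 cKO mouse, edgeR called 0 genes (0%; 107 at an unadjusted p under 0.05; 0 by DESeq2), and the 3 genes of smallest p, none called, were Slco1a4, Gigyf1 and Washc1. At 1 d, with 1 WT mouse, edgeR called 0 (0%; 205 under 0.05), and DESeq2 called 1, the neuronal non-coding RNA Bc1, with Ino80b, Mlxip and Gm13341 of smallest p in edgeR. At 7 d edgeR called 0 (0%; 102 under 0.05; 0 by DESeq2), with Ubl4a, Ctso and Fnbp4 of smallest p, and with the series it called 1 gene (0.0126%), Xist, lower in cKO. That call was kept in 5 of 14 fits that left out 1 mouse, and WT replicate 2 had the 11 Xist UMIs found at 7 d, while both cKO mice had Ddx3y (3 and 48 UMIs). The single cKO or WT mouse at 2 of these times was assumed to vary like the other groups.

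Lists between genotypes at those times had no called member. Pan-reactive genes had a median of -0.12 at 1 d (-0.27 with bounds), where the median over all genes was 0.50 (-0.37 with bounds), and with the series in the design it was 0.18 against 0.22. It was 0.66 at 7 d (0.21 with bounds) against 0.10. Uninjured, 24 of 32 homeostatic genes lay below 0 (median -0.43 against -0.02 over all genes) and adhesion genes had a median of -1.06. With the series these medians were -0.42 and -0.26 against -0.13, the cKO mouse being of the high series and 1 of the 2 WT mice of the low series. Over all injured mice edgeR called 0 genes (0%; 168 under 0.05; 0 by DESeq2), with Ctso, Gm12892 and BC002163 of smallest p, and the pan-reactive median was -0.23 against 0.30 over all genes, or -0.06 against 0.17 with the series. The test of whether the genotype difference itself differed with injury called 0 genes (0%; 146 under 0.05; 0 by DESeq2), with pan-reactive genes at a median of -0.35 and homeostatic genes at 0.40 against 0.52 over all genes.

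Genes that the study ties to astrocyte adhesion and signalling were measured in all 14 mice. Nrcam, a neuronal cell adhesion molecule, stood at 774, 313 and 357 CPM uninjured, 626, 608 and 614 at 1 d, 616, 376, 372 and 408 at 7 d and then 489, 351, 441 and 323 at 14 d. Cntn1, a contactin, stood at 834, 960.0 and 599.9, 365, 501 and 541, 492, 696, 745 and 741 and 634, 715, 607 and 647 at the same times. Psap stood at 800.3, 969, 665 and 1300.4 at 7 d and then 1444, 943, 1172 and 1038 at 14 d. None was called. The genotypes overlapped at 14 d for all 3 genes and at 7 d for Nrcam and Psap, while both cKO mice lay above both WT mice for Cntn1 at 7 d, as in 1022 of 7929 genes (12.9%).

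Mitochondrially encoded genes took 11.5 ± 2.00% (SD, n = 3) of Cluster 5 UMIs in uninjured mice and 9.09 ± 2.14% (SD, n = 11) in injured mice. The lowest mouse was cKO 1 d replicate 1 (5.39%) and the highest cKO uninjured replicate 2 (13.1%), and the groups overlapped. The difference of -2.39 percentage points had a two-sided exact permutation p of 0.110 over 364 splits, the smallest possible p being 0.00275. Without WT uninjured replicate 1 the exact permutation p was 0.0385.

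Scaling moved the median of all genes in some comparisons. Relative to TMM, the median log2 fold change over all genes shifted by 0.13 (RLE) and 0.27 (DESeq2) at 1 d, by -0.11 and -0.12 for cKO against WT at 1 d, and by -0.13 and -0.30 for genotype by injury. DESeq2 also shifted it by 0.15 for injured against uninjured and by -0.12 for cKO against WT over injured mice. Such a shift can move a list median along with the median of all genes. In those comparisons, list medians within those distances of 0 have no sign of their own.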

How the data were processed

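Spinal cord cells of 16 mice were measured by 10x 3′ single-cell sequencing, 1 library per mouse. Per the labels and the methods of the study, the authors aligned and counted UMIs with Cell Ranger on mm10 (GRCm38), and with Seurat in R 4.1.2 kept cells with more than 200 genes and less than 25% mitochondrial UMIs and clustered them after Harmony integration over batch and sample. The deposited matrix holds raw UMI counts of 55487 genes in 18203 cells, and the total count of each of the 18203 cells equals the total in the deposited cell table. The deposited cell table gives percent mitochondrial UMIs (highest 24.992), genes per cell (lowest 201), sample, batch and cell type. Its batch column equals the replicate number in 16 of 16 mice. No doublet removal is described by the authors and none was added here, so any doublets are still in Cluster 5.

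Counts were summed per mouse over Cluster 5 cells and tested with the quasi-likelihood test of edgeR 4.0.16 (limma 3.58.1, R 4.3.3) on raw counts, with TMM scaling, filterByExpr, means of the 8 conditions (6 residual degrees of freedom) and Benjamini-Hochberg adjustment over all 7929 genes at 0.05. Residual spread was shared over all conditions. DESeq2 1.42.0 was an alternative, as were RLE scaling, no filter on low counts, at least 30 cells per mouse, a replicate block, conditions taken from cell names, leaving out the 4 shallow libraries and leaving out each mouse. The animal number series as a term, the mice of 10000 and above alone, and that subset with cell names or with DESeq2 were added after seeing the data. The fits were tested on simulated data first, and no result of that is given here. The mitochondrial percent was tested by exact permutation over mice. Cells were thinned to 300 UMIs for shares of cells and for variance to mean, leaving out shallower cells, and shares have exact Clopper-Pearson intervals. A floor is 3 counts. Python 3.11.15 with numpy 2.4.6, pandas 2.3.3, scipy 1.17.1 and matplotlib 3.10.9 did the rest. Positions are from the GENCODE annotation of mm10.

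Genes were named by rule: the 5 given markers and 13 genes that the study ties to astrocytes; per comparison with calls, the up to 10 largest rises and falls among called genes whose groups did not overlap; per comparison with none, up to 3 of smallest p; per list, each called member and up to 4 of highest level; and 10 genes of highest variance to mean. Cluster 5, its markers and the lists were chosen with earlier results of these data known. Values of some named genes are not reported here.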

Additional observations from a re-analysis of the deposited data

Results flagged for a closer look

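Of 76 sets of 4 mice (38 measures at 7 d and at 14 d), 9 held a mouse far from the other 3. The rule used the gap to its nearest neighbour relative to the whole range. It is meant to give about 1 in 20 by chance for separate values that can vary. The sets share mice, and those at 7 d mix both animal number series, so their chance rate is not known. In 2 of the 9, Timp1 and Lcn2 at 7 d, the other 3 mice were at 0, so that any value above 0 stands apart, which leaves 7 of 74 sets. At 14 d, WT replicate 1 was the mouse apart in 4 of them: C3 was at 474 TMM-normalised CPM against 41.6 to 68.9 in the others, Mt1 at 10338 against 3598 to 4415, Mt2 at 2552 against 1034 to 1234, and Hspb1 at 206 against 26.3 to 46.8. At 7 d, WT replicate 1, a shallow library, was low in Ryk (30.8 against 103 to 113 CPM, from 1 UMI) and high in Nrcam (616 against 372 to 408) and in Timp1 (30.8 against 0). The shallow cKO 7 d replicate 1 was high in Clu (3882 against 1346 to 1649 CPM). Lcn2 was at 11.9 CPM in cKO 7 d replicate 2 and at 0 in the other 3 mice. The part of depth in these values was not tested.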

How the results depend on the processing

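Each tested mouse had at least 35 Cluster 5 cells, so the setting of at least 30 cells per mouse refitted the same data and checks nothing. RLE scaling changed no count of calls by over 1.5 times. With no filter on low counts the calls were 1 for injured against uninjured, 9 at 1 d, 1 at 14 d and 1 for cKO against WT at 14 d, and DESeq2 gave 1 at 14 d and 1 for cKO against WT at 1 d. Without the 4 shallow libraries there were 39 at 1 d (1 mouse left there) and 1 for cKO against WT at 14 d, and 0 at 1 d by the conditions of the cell names. With the series in the design there were 34 (injured), 25 (1 d), 25 (7 d), 47 (14 d), 1 (cKO against WT at 7 d) and 8 (at 14 d). The mice of 10000 and above alone gave 113, 193, 56, 109, 1 and 10 in that order, 3 for cKO against WT injured, 1 for genotype by injury and 2 for the response against Cluster 7. That subset with cell names gave 143 (injured), 95 (1 d), 51 (7 d) and 162 (14 d), and for cKO against WT 149 (1 d), 70 (7 d), 106 (14 d) and 31 (injured). The subset with DESeq2 gave 13 (injured), 24 (1 d), 10 (7 d) and 14 (14 d), and 0 for genotype by injury and for cKO against WT uninjured, at 7 d, at 14 d and over injured mice. The cause of these differences was not tested.

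The replicate block gave 9 calls at 1 d, 5 at 14 d and 1 for cKO against WT at 14 d, and changed no other count. Deviations of same-numbered mice correlated at 0.49 to 0.63 (3638 genes) among WT uninjured, cKO 1 d and both genotypes at 7 d, and at 0.02 to 0.15 where a 14 d group was involved. With the replicate block Lcn2 was at 8.05 at 1 d (adjusted p 3.22e-09) and Hspb1 at 4.80 (7.22e-05).

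Leaving out 1 mouse in turn gave 0 to 4 calls for injured against uninjured (4 without WT uninjured replicate 1) and 0 to 20 at 1 d (20 without WT 1 d replicate 1, 10 without WT uninjured replicate 1, 4 without WT uninjured replicate 2, and 0 without cKO uninjured replicate 2 or cKO 1 d replicate 2). It gave 0 to 1 for cKO against WT at 14 d (1 without WT uninjured replicate 1 or 2) and 0 to 0 for the other fits with conditions alone. With the series it gave 20 to 57 for injured (57 without WT 1 d replicate 1, 22 without WT uninjured replicate 2, 20 without cKO 7 d replicate 2) and 9 to 122 at 1 d (122 without WT 1 d replicate 1, 43 without WT uninjured replicate 2, 14 without cKO 14 d replicate 1 or 2, 9 without cKO 1 d replicate 2). At 7 d it gave 3 to 33 (14 without WT uninjured replicate 2, 4 without WT 7 d replicate 2, 3 without cKO 7 d replicate 2, 15 and 16 without cKO 14 d replicates 1 and 2). At 14 d it gave 17 to 78 (78 without WT uninjured replicate 1, 17 without WT uninjured replicate 2, 71 without cKO 1 d replicate 2, 27 and 24 without cKO 14 d replicates 1 and 2). For cKO against WT it gave 0 to 2 at 7 d and 1 to 20 at 14 d. The mitochondrial difference ran from -3.51 to -1.59 percentage points without 1 mouse (exact permutation p 0.0385 to 0.372), was -4.21 as a median over cells (p 0.0632), -1.21 without the shallow libraries (p 0.300), -1.26 with cell names (p 0.484) and -2.33 in the mice of 10000 and above (p 0.0833).

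Of 37348 values of named genes under alternatives, 34805 counted as the same, 2215 moved, 224 gained a call and 88 lost one. The other 16 turned direction in a gene called in at least 1 of the 2 fits. The same means called in both fits with 1 direction, or called in neither with a shift under 1 SE. Values called in neither fit that shifted more were counted as moved, and turns of direction were not counted among genes called in neither. At 1 d Gm12892 was at 3.34 in the mice of 10000 and above, and Ino80b at 3.66 without the 4 shallow libraries and 3.54 in the mice of 10000 and above. In that subset with cell names, cKO against WT at 1 d was 9.32 for Lcn2, 8.81 for Hmox1, 8.63 for Tm4sf1, 5.35 for Hspb1, 1.86 for Cd44 and 1.07 for Clu, at 7 d -1.86 for Pdlim2 and -2.20 for Ndufb4, and over injured mice -1.60 for Pdlim2 and -0.64 for Gm42418. With the series and 1 mouse left out, Tm4sf1 at 1 d ran from -0.52 (without cKO 1 d replicate 2) to 6.76, Ino80b from -1.22 to 3.39 (without WT 1 d replicate 1), and Ndufb4 at 7 d from -3.97 to 0.0388 (without cKO 7 d replicate 2). The cause was not tested. Depth limits the rest: a single UMI was worth 35.8 CPM in cKO 1 d replicate 1.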

Other observations

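Other genes that the study ties to astrocytes were also measured in Cluster 5, and none was called at any time. S100b, a calcium-binding protein of astrocytes and oligodendrocytes, stood at 364, 2879.9 and 3089.8 TMM-normalised CPM in the uninjured mice, at 417, 286 and 1466 at 1 d, at 277, 2042, 505 and 2163 at 7 d and at 2628, 1590.2, 1799 and 1989 at 14 d. Its 5 lowest values were those of the low animal number series, at 277 to 505 CPM, as with the oligodendrocyte markers. Sox9, a transcription factor of astrocytes, stood at 197, 308 and 204 uninjured and 283, 377, 324 and 263 at 14 d. Cdh2, the adhesion protein N-cadherin, ran from 129 to 431 CPM and was higher in each of the 5 mice of the low series than in each of the other 9.

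Enzymes of chondroitin sulfate, the sugar chain of inhibitory proteoglycans, followed the series too. Csgalnact1, which starts the chain, stood at 334, 69.6 and 45.3 CPM uninjured, 156, 250.5 and 51.4 at 1 d, 215, 148, 266 and 74.4 at 7 d and then 38.2, 80.5, 138 and 79.0 at 14 d. Chst11, which sulfates it, stood at 182, 34.8 and 50.9, 156, 143 and 59.5, 123, 68.4, 106 and 41.7 and 68.8, 31.2, 20.7 and 52.6. In both genes the 5 mice of the low series lay above the other 9. Gpr37l1, a receptor of prosaposin, ran from 573 to 2245 CPM, Gpr37, its relative, from 35.8 to 185, and Vegfa, the vascular growth factor, from 51.4 to 455.

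Other homeostatic genes were also among the 12 of 32 that were lower in every mouse at 1 d than in every uninjured mouse, against 6.19% of all genes. Slc6a11, a GABA transporter, stood at 2533, 925 and 843 CPM uninjured and 626, 608 and 465 at 1 d, Ntsr2, a neurotensin receptor, at 1259, 786 and 589 and 209, 250.5 and 408, and Mlc1, a membrane protein of endfeet, at 439.9, 502 and 407 and 209, 35.8 and 298. At 14 d they stood at 718, 769, 917 and 647, at 1299, 678, 545 and 613 and at 466, 481, 462 and 384. None of the 3 was called, and the part of the TMM factors in these values was not tested.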
